A study of Mus musculus
Mus spretus with 18 samples.

Results

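Splicing and expression were examined for 8 genes of the cardiac sarcomere and Z-disc, namely Ldb3, Pdlim3, Pdlim5, Tnnt2, Myom1, Nebl, Nexn and Sorbs2. The genes were chosen by name, and every skipped exon (SE) event listed under their symbols was taken from the tissue tables. This gave 107 events on 77 exons, of 75178 skipped exons in the tables as a whole, and 8 of the 38924 genes in the expression table.

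The sarcomere is the contractile unit of striated muscle. Its actin-based thin filaments are anchored in the Z-disc, its myosin-based thick filaments are held together at the M-band, and PDZ-LIM, nebulin-family and SH3 adaptor proteins tie the Z-disc to actin, to titin and to the cell membrane. Many of these proteins are made in several isoforms, and the choice of exons is known to change as the heart matures and to differ between striated muscle and other tissues.

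The animals and cells were F1 hybrids between the inbred mouse strains C57BL/6J and SPRET/EiJ, so that each cell carried 1 copy of every autosomal gene from each strain. RNA-seq libraries were made from heart, cortex, kidney, lung, spleen and liver of mice at 8 weeks of age and from F1 embryonic stem cells (ESC), with 2 replicates each. A fibroblast line from the same cross was treated for 4 h with 0.1 μM pladienolide B (PladB), an inhibitor of the splicing factor SF3B1, or with its solvent DMSO, again with 2 replicates each. The liver libraries came from an earlier data set on the same animals, the organ replicates came from different mice, the ESC replicates were separate clones and the fibroblasts were a single line. The organs are mixtures of cell types, in which fewer cells of a type and less RNA per cell cannot be told apart.

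The tissue libraries held 46558287 to 129496306 junction reads over all SE events and the fibroblast libraries 129067054 to 151755602. The reads that could be assigned to a parent numbered 10338947 to 46793808 per allele and tissue library. The 10 cardiomyocyte markers summed to 82164 and 81577 TPM, the expression unit of the tables, in the heart libraries, to 1721 and 1330 in lung and to at most 82.3 in any library of the other tissues. In lung, 9 of the 10 markers were above 1 TPM in both libraries, and Myl2, a ventricular light chain, was at 0.0801 and 0.138 TPM.

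The percent spliced in (PSI) is the share of transcripts that contain an exon, estimated from the junction reads that include or skip it. In heart, 66 of the 77 exons had at least 20 junction reads in both replicates. Of these, 48 had a PSI above 95%, 13 had one between 5% and 95% and 5 were below 5%. The replicates of heart differed by a median of 0.376 percentage points over these exons and by 5.96 points at most. These figures are for the event with the most reads of each exon. Other events could differ more, as 1 of the 204-nt Ldb3 exon did, at 57.3% and 100% from 162 and 69 reads. The intermediate group held at least 1 exon of Ldb3, Pdlim5, Tnnt2, Myom1, Nebl, Nexn and Sorbs2, and the single Pdlim3 exon was at 96.8% and 97.3%.

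Which of these exons were used differently in heart was asked by comparing heart with each other tissue in which the same event also had 20 reads in both replicates. For 36 of the 66 exons at least 1 such comparison could be made, and for the other 30 the event with the most reads, which stood for each exon, did not reach 20 reads in both replicates of any other tissue. A difference was called when the adjusted p from a quasi-binomial model was below 0.05 and the PSI differed by at least 10 points. By this measure 13 of the 36 exons differed between heart and at least 1 tissue, beside 15.9% of the 19702 exons tested in all genes. Of the 36 tested exons, 7 were called only higher in heart (6.87% of all exons tested) and 6 only lower in heart (6.97%). No exon was called in both directions (2.01%). The called exons were 6 in Sorbs2, 2 each in Tnnt2, Nebl and Nexn and 1 in Myom1.

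**Figure D1:**
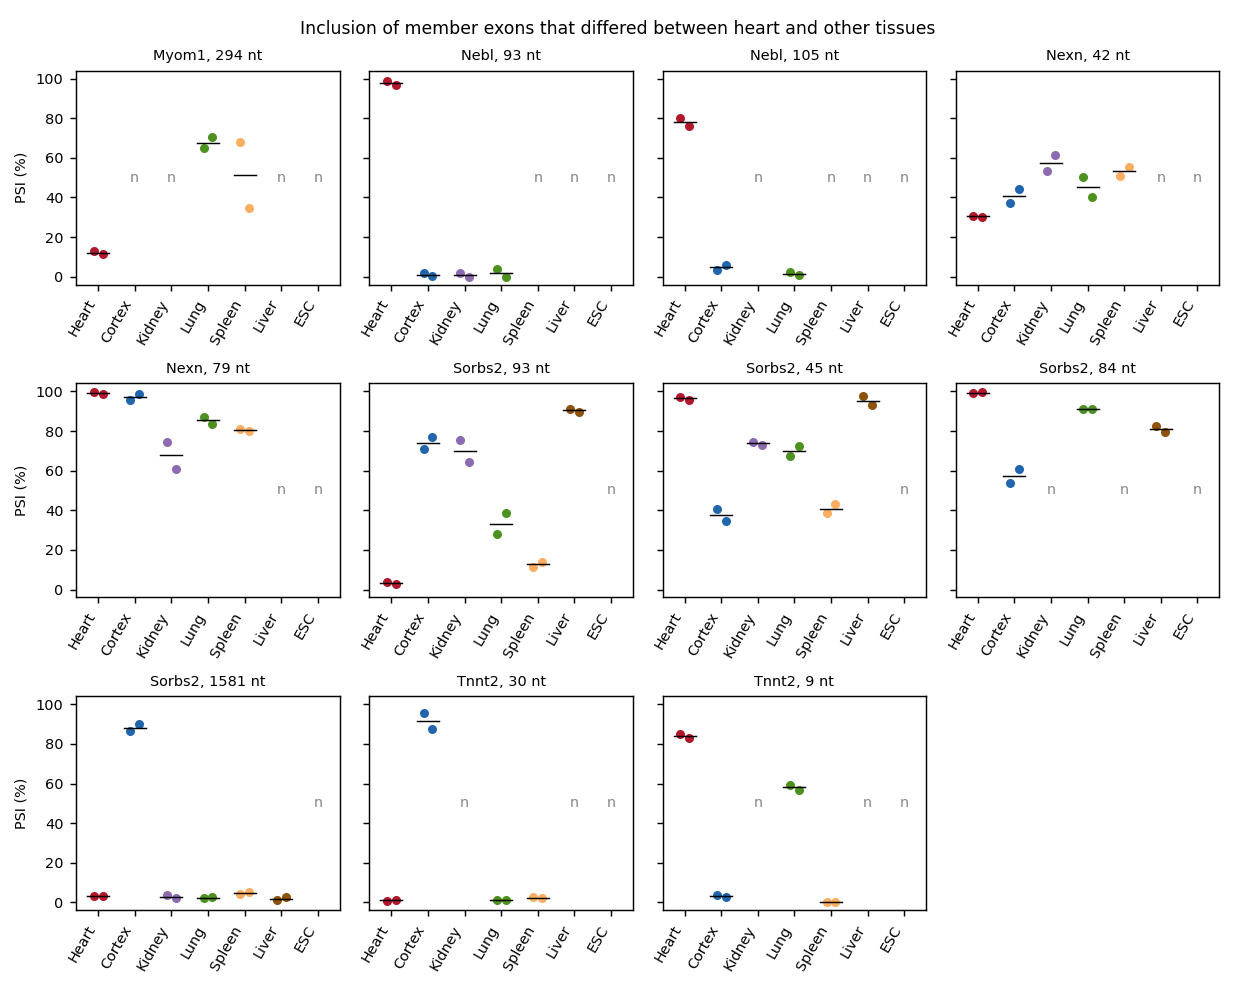
PSI in percent (y axis) of the 11 exons of Tnnt2, Myom1, Nebl, Nexn and Sorbs2 that were called between heart and at least 1 other tissue, limited to the 4 per gene that differ most from the mean of the other tissues, by tissue (x axis). Each point is 1 replicate, each bar the mean of 2 replicates, and n marks a tissue with fewer than 20 reads in a replicate. The Nebl exons are above 75% in heart and near 0 elsewhere, whereas the 1581-nt Sorbs2 exon is near 0 everywhere except in cortex.

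Among the thin filament genes, Tnnt2 encodes cardiac troponin T, the subunit that binds tropomyosin. Its 9-nt exon (mm10, chr1:135850379-135850387, plus strand) had a PSI of 84.9% and 83.0% in the heart replicates, 59.2% and 56.9% in lung, 3.78% and 2.48% in cortex and 0.197% and 0% in spleen. Both heart libraries lay above all 6 others, with lung in between. The difference from heart was 25.9 ± 2.44 points in lung (SE, adjusted p = 3.14e-10), 80.8 ± 7.19 points in cortex (adjusted p = 0.00172) and 83.8 ± 0.824 points in spleen (adjusted p = 3.18e-09). The heart values rest on 291644 and 274882 junction reads, those of cortex on 48 and 73.

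The 30-nt exon of Tnnt2 (chr1:135843785-135843814) went the other way in cortex. It was nearly always skipped in heart, at 0.962% and 1.07%, and likewise in lung at 1.16% and 1.41% and in spleen at 2.65% and 2.08%. In cortex its PSI was 95.6% and 87.5%, from 31 and 43 reads, a difference from heart of -90.5 ± 10.2 points (adjusted p = 4.13e-08). Cortex thus stood apart from the other 3 tissues, at a Tnnt2 level of 8.27 and 7.88 TPM beside 17772 and 17701 TPM in heart. Tnnt2 is a textbook case of an exon switch between the fetal and the adult heart. A 12-nt exon just before it was included at 22.4% and 21.6% in heart, 19.2% and 20.2% in lung and 15.3% and 3.70% in spleen, and was not called (adjusted p = 0.496 and 0.424).

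At the M-band, Myom1 encodes myomesin 1, which links thick filaments to titin. Of its 14 exons measured in heart, 13 were above 95%. The exception was a 294-nt exon (chr17:71082203-71082496), with a PSI of 12.8% and 11.4% in heart, 64.9% and 70.4% in lung and 68.0% and 34.5% in spleen. Heart was the lowest tissue and did not overlap with the others. The difference was -55.6 ± 6.50 points against lung (adjusted p = 7.59e-09) and -39.2 ± 12.6 points against spleen (adjusted p = 0.00492), where the replicates had 42 and 39 reads and lay far apart. Myom1 is known for a form with an additional exon in the embryonic heart.

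Nebl encodes nebulette, a nebulin-family protein of the cardiac Z-disc that binds actin, and the same locus is known to give a shorter form, LASP2, outside striated muscle. Its 93-nt exon at chr2:17370459-17370551 (minus strand) was included at 98.5% and 96.8% in heart, at 1.77% and 0.282% in cortex, at 1.96% and 0% in kidney and at 3.87% and 0% in lung. No other tissue came near the heart values, and the differences were 96.7 ± 1.09, 96.7 ± 1.64 and 95.8 ± 1.81 points (adjusted p = 4.26e-18, 7.12e-12 and 5.25e-13).

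The 105-nt Nebl exon at chr2:17417893-17417997 showed the same order at a lower heart level. It was at 80.2% and 75.8% in heart, 3.61% and 6.12% in cortex and 2.27% and 0.730% in lung. Heart exceeded cortex by 73.1 ± 3.48 points (adjusted p = 1.47e-08) and lung by 76.5 ± 2.43 points (adjusted p = 8.56e-10). Both switches were seen although Nebl as a whole was little higher in heart, at 33.9 and 39.2 TPM, than in cortex, at 21.7 and 23.0 TPM, or lung, at 22.1 and 20.5 TPM.

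Nexn encodes nexilin, an actin-binding protein of the Z-disc region, and had smaller differences. Its 42-nt exon (chr3:152249660-152249701, minus strand) was at 30.7% and 30.1% in heart, below every other library measured. It stood at 53.2% and 61.2% in kidney, 50.4% and 40.1% in lung and 51.0% and 55.2% in spleen, so that heart minus the other tissue was -26.8 ± 8.49, -14.8 ± 2.51 and -22.7 ± 6.17 points (adjusted p = 0.0253, 2.88e-05 and 0.00605). With the replicate number as a block the kidney difference was not called (adjusted p = 0.106). In cortex it was at 37.0% and 44.1% and was not called (adjusted p = 0.195).

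The 79-nt exon of Nexn (chr3:152253051-152253129) was included almost fully in heart, at 99.5% and 98.9%. It was at 74.7% and 60.7% in kidney, 87.2% and 83.8% in lung, 80.8% and 80.0% in spleen and 95.9% and 98.9% in cortex. Only cortex reached the heart range. Heart exceeded kidney by 31.5 ± 7.83, spleen by 18.7 ± 5.51 and lung by 13.7 ± 2.18 points (adjusted p = 1.95e-06, 3.47e-05 and 1.85e-08).

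Sorbs2 encodes an SH3 adaptor of the Z-disc and of cell adhesions, also known as ArgBP2, with a neural form called nArgBP2. It had 6 called exons of 9 tested. Its 93-nt exon (chr8:45741487-45741579, plus strand) was nearly absent from heart transcripts, at 3.68% and 3.05%. The PSI was 91.3% and 89.6% in liver, 71.0% and 77.0% in cortex, 75.3% and 64.5% in kidney, 27.9% and 38.5% in lung and 11.6% and 14.1% in spleen. Heart was the lowest tissue and liver the highest. The differences from heart were -87.1 ± 2.45 points for liver (adjusted p = 8.21e-20), -70.6 ± 2.69 for cortex (adjusted p = 1.88e-20), -66.5 ± 4.52 for kidney (adjusted p = 4.39e-16) and -29.8 ± 7.01 for lung (adjusted p = 2.19e-06). Spleen differed by -9.47 points, under the limit of 10.

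The 1581-nt exon of Sorbs2 (chr8:45794978-45796558) separated cortex from everything else. Cortex included it at 86.4% and 90.0%, and heart at 3.38% and 3.06%, a difference of -85.0 ± 1.46 points (adjusted p = 4.61e-25). In the 4 tissues besides it stayed between 1.24% and 5.09%, so that heart was one of 5 tissues that skipped it.

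Heart and cortex also differed in a 45-nt exon of Sorbs2 (chr8:45770546-45770590), here with heart at the top. It was at 97.0% and 95.9% in heart, 97.7% and 93.0% in liver, 74.5% and 73.1% in kidney, 67.4% and 72.5% in lung, 40.7% and 34.7% in cortex and 38.4% and 43.1% in spleen. Heart overlapped with liver and lay above the other tissues. Its excess was 58.8 ± 2.28 points over cortex, 55.7 ± 3.40 over spleen, 26.5 ± 6.51 over lung and 22.7 ± 3.60 over kidney (adjusted p = 4.20e-19, 2.38e-15, 4.22e-05 and 3.30e-08).

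An 84-nt exon of Sorbs2 (chr8:45783543-45783626) was at 99.2% and 99.6% in heart, 91.1% and 90.9% in lung, 82.7% and 79.5% in liver and 54.0% and 60.8% in cortex. Heart was above each of them, and the differences from cortex (42.1 ± 3.87 points, adjusted p = 3.35e-13) and liver (18.3 ± 4.25 points, adjusted p = 6.20e-07) were called. The remaining called exons of Sorbs2 differed from heart in 1 tissue each. These were a 57-nt exon, 27.4 ± 13.2 points higher in heart than in spleen (adjusted p = 0.0219), and a 92-nt exon, for which heart minus liver was -35.0 ± 3.13 points (adjusted p = 4.00e-10). The spleen values of the 57-nt exon rest on 24 and 27 reads.

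Ldb3, Pdlim3 and Pdlim5 encode PDZ-LIM proteins of the Z-disc, known as Cypher or ZASP, ALP and ENH, which bind α-actinin. None of their 10 tested exons was called. The 186-nt exon of Ldb3 (chr14:34555343-34555528) had a PSI of 81.0% and 85.6% in heart and 68.6% and 59.2% in lung, without overlap, but the difference of 19.4 ± 9.04 points did not pass the test (adjusted p = 0.184). The 188-nt exon of Pdlim3 was at 96.8% and 97.3% in heart, 93.0% and 90.2% in lung and 99.1% and 99.3% in spleen.

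For Pdlim5 the outcome depended on which neighbours an exon was measured between. An SE event is defined by the exon and the 2 exons that flank it, and the event with the most reads stood for each exon. For an 18-nt exon of Pdlim5 (chr3:142304705-142304722, minus strand) that event, with a 15-nt exon (chr3:142306284-142306298) as neighbour, was measured in heart at 99.9% in both replicates and in lung at 97.9% and 97.6%, and was not called. Measured between the exons at 142304469 and 142312123, the 18-nt exon was at 88.1% and 87.5% in heart, 7.90% and 10.4% in cortex, 7.77% and 6.56% in lung, 0.675% and 0.142% in kidney, 0.683% and 0.249% in liver and 0.327% and 1.04% in ESC. In this context heart stood far above the 5 other tissues, with called differences of 78.6 to 87.4 points.

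The 15-nt exon of Pdlim5 measured between the same outer exons gave 76.3% and 75.3% in heart. Kidney, lung, spleen, liver and ESC lay between 0% and 4.57%, and all 5 differences were called, at 72.6 to 75.2 points. These 2 exons are neighbours that share skipping reads. They were singled out after their values had been seen, as events other than the best covered one that were called against 5 tissues.

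The same held for a run of exons in Sorbs2. Between the exons at 45775703 and 45789976, the 159-nt exon (chr8:45782802-45782960) was at 78.7% and 77.9% in heart and between 9.09% and 33.3% in the 5 other tissues, while its best covered event was at 96.5% and 95.3% in heart and was not called. The 57-nt exon (chr8:45785269-45785325) between the same outer exons was at 73.7% and 73.9% in heart, at 37.5% and 38.6% in cortex and at 4.83% and 5.56% in spleen. The 84-nt exon between the exons at 45782960 and 45789976 was at 98.5% and 99.0% in heart and 85.8% and 89.2% in liver. It was at 80.8% and 73.7% in cortex, 61.1% and 78.2% in lung and 17.0% and 22.2% in spleen. In kidney it was at 33.3% and 23.1%, from 24 reads in each replicate. Between the exons at 45775703 and 45789976 the 84-nt exon was only at 17.7% and 17.3% in heart. There it was at 2.62% and 5.19% in cortex, 5.77% and 0.621% in lung and 0.469% and 0.501% in liver. With every event counted, 22 of 49 tested events of the 8 genes were called, beside 16.1% of all 22664 events. With the event that could be tested against most tissues standing for each exon, an alternative chosen after seeing the data, 16 of 37 exons were called, beside 15.8% of all.

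**Figure D2:**
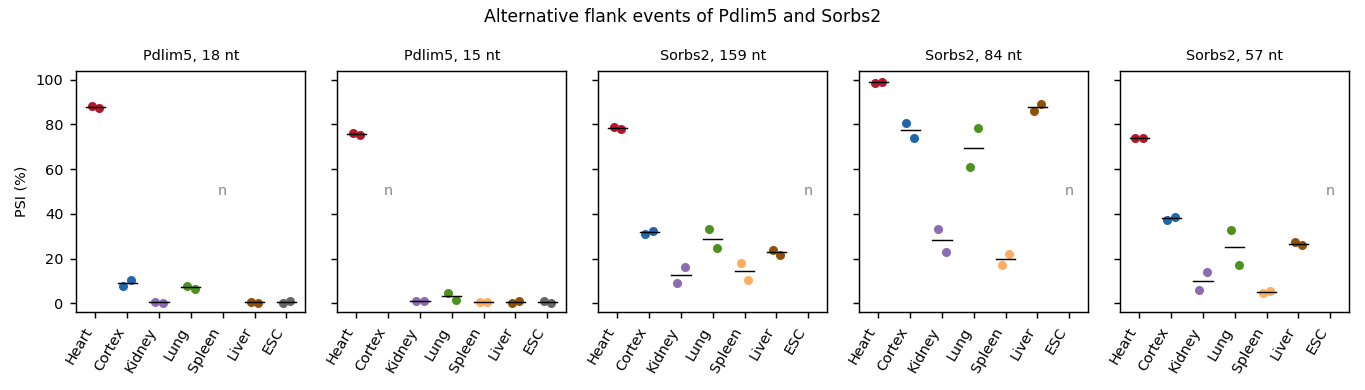
PSI in percent (y axis) by tissue (x axis) of exons of Pdlim5 and Sorbs2 measured between more distant flanking exons, chosen after their values were seen. Points are replicates, bars means of 2 replicates, and n marks tissues with fewer than 20 reads. Heart is the highest tissue in each panel, and in Pdlim5 the other tissues lie at or below 10.4%.

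By tissue, the exons of the 8 genes were called against cortex in 8 of 20 comparisons (5 higher and 3 lower in heart), beside 11.4% of all exons (5.1% higher and 6.29% lower). Against kidney 5 of 15 were called (8.27% of all exons), with 3 higher and 2 lower in heart (4.28% and 3.99%). Against lung 8 of 31 were called (7.02%), with 5 higher and 3 lower (3.86% and 3.16%), and against spleen 6 of 22 (8.86%), with 4 higher and 2 lower (5.05% and 3.81%). Against liver 3 of 12 were called (9.74%), 1 higher and 2 lower (4.51% and 5.23%). Against ESC, where only 4 exons of Pdlim5 could be tested, none was called (9.43% of all exons), with 2 at an unadjusted p below 0.05. These 2 also passed after adjustment in the quasi-binomial test but lay under the limit of 10 points. The 43-nt exon was 2.50 points higher in heart (adjusted p = 0.00382) and the 152-nt exon 1.56 points (adjusted p = 0.00375). The median size of the difference from heart was 7.06 points in cortex, 4.74 in spleen, 3.76 in kidney, 2.39 in liver, 2.14 in lung and 1.51 in ESC, beside 1.34, 1.27, 1.00, 1.29, 1.04 and 1.29 over all exons. The lung values of these genes come beside the cardiomyocyte markers given above, whose part in them was not tested.

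Most called exons had a length that would keep a reading frame, though whether they are coding was not examined. Of the 13, 11 had a length that is a multiple of 3 (84.6%), against 9 of the 23 tested exons that were not called (39.1%). In all genes the shares were 56.8% of 3123 called and 40.6% of 16579 other exons. The called exons included 2 of 30 nt or less, both in Tnnt2 (15.4%), and the exons not called 4 (17.4%), so that short exons were not more frequent among those called. In all genes these shares were 7.94% of called and 1.35% of other exons. These shares are descriptions of short lists.

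Only 2 of the exons were measured in all 7 tissues, both in Pdlim5. The 419-nt exon (chr3:142312123-142312541) lay between 98.1% and 99.8% and the 152-nt exon (chr3:142352734-142352885) between 96.3% and 99.9%. Of 7372 exons measured in all tissues, those with the profile closest to the 152-nt exon were in Trmt10b, Zc3h7a, Pecam1, Tlk1 and Rps6kc1, at a root mean square distance of 0.680 to 0.791 points over the 7 tissue means. All of these are nearly constant exons.

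Whether the parental alleles were spliced differently was asked within each tissue, where both alleles share the same cells and factors. In heart 57 exons of the 8 genes had 20 allelic reads in each replicate of each allele. The alleles differed by less than 1 point for 34 of these and by at least 10 points for 7. With the same limits as above, 4 exons were called, beside 2.03% of all 14160 exons tested in heart. All 4 were included less on the C57BL/6J allele, and they lay in Tnnt2, Nebl and Ldb3.

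**Figure D3:**
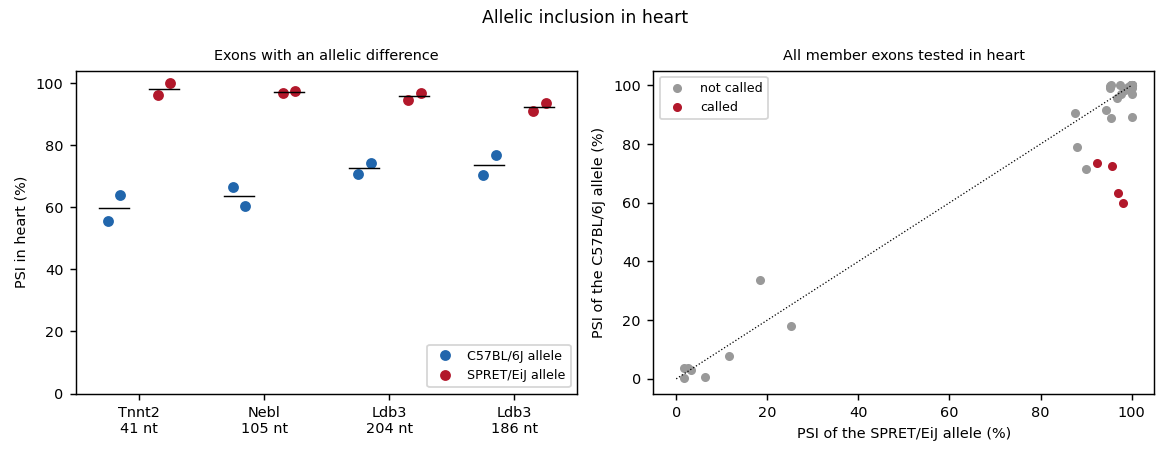
Left, PSI in heart in percent (y axis) of the 4 exons called between alleles, with points for replicates and bars for means of 2 replicates. Right, mean PSI of the C57BL/6J allele (y axis) against the SPRET/EiJ allele (x axis), both in percent, for the 57 exons tested in heart. The called exons lie at 59.8% to 73.7% on C57BL/6J and above 92% on SPRET/EiJ, and 34 of the 57 exons differ by less than 1 point.

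The 105-nt Nebl exon at chr2:17417893-17417997, the one used mainly in heart, had a PSI of 66.5% and 60.5% on the C57BL/6J allele and of 96.7% and 97.3% on the SPRET/EiJ allele. The alleles did not overlap, and the difference was -33.5 points (adjusted p = 0.00351). It was read from 417 to 524 reads per allele and replicate. Measured up to a more distant neighbour, at 17411193, the same exon gave 98.9% and 100% on C57BL/6J and 85.3% and 90.6% on SPRET/EiJ, which is the opposite direction and was not called (adjusted p = 0.155).

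In Ldb3 the 186-nt exon was included at 70.5% and 76.8% on C57BL/6J and at 91.0% and 93.6% on SPRET/EiJ, a difference of -18.6 points (adjusted p = 0.00928) read from 2659 to 2946 reads per allele and replicate. In lung it was at 58.2% and 61.3% against 79.2% and 65.8%, from 25 to 53 reads, and was not called (adjusted p = 0.57). The 204-nt exon of Ldb3 (chr14:34571718-34571921) was at 70.9% and 74.4% on C57BL/6J and 94.4% and 96.9% on SPRET/EiJ, a difference of -23.1 points with an adjusted p of 0.0460. This call was lost in fits without either heart library. Those fits also took the dispersion over all tissues, since 1 heart library leaves none to estimate, so the library is not the only change. A 15-nt exon beside it was also lower on C57BL/6J, at 63.5% and 79.5% against 87.9% and 92.2%, and was not called (adjusted p = 0.206). Measured up to a more distant neighbour, at 34578595, the 15-nt exon showed no such difference. There it was at 71.3% and 100% on C57BL/6J against 66.7% and 100% on SPRET/EiJ (2.30 points, not called). Over 1 event per exon in heart, Ldb3 drew 49.3% and 48.4% of its allelic reads from C57BL/6J.

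In Tnnt2 the called exon was a 41-nt exon (chr1:135843774-135843814) that ends at the same base as the 30-nt exon and starts further upstream. Its event lies between the exons at 135840912 and 135845555 and covers a small part of Tnnt2 transcripts. Over all heart reads it had 992 and 1104 inclusion reads and 60 and 34 skipping reads. The 11-nt exon between the same flanks had 154116 and 144260 inclusion reads. In its event the 41-nt exon was at 55.5% and 64.1% on C57BL/6J, from 102 and 127 reads, and at 96.0% and 100% on SPRET/EiJ, from 950 and 1010 reads (-38.2 points, adjusted p = 0.0299). The event thus had far more reads on SPRET/EiJ, whereas Tnnt2 as a whole drew 51.3% and 51.4% of its reads in heart from C57BL/6J.

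Other exons of Tnnt2 differed between the alleles by less than the limit of 10 points. The gene had 1645113 and 1568843 allelic reads in the heart libraries, over 1 event per exon. The 9-nt exon was at 80.0% and 78.3% on C57BL/6J and 88.7% and 87.2% on SPRET/EiJ (-8.82 points, adjusted p = 0.00707), the 12-nt exon at 18.6% and 17.2% against 25.4% and 25.0% (-7.30 points, adjusted p = 0.00126) and the 30-nt exon at 0.270% and 0.263% against 1.53% and 1.75% (-1.37 points, adjusted p = 0.000941). In each of these the replicates of an allele lay close together and the alleles did not overlap. Measured between the exons at 135841911 and 135843785, the 12-nt exon went the other way, at 91.8% and 92.0% on C57BL/6J against 82.8% and 82.4% on SPRET/EiJ (9.34 points, adjusted p = 0.00561). In lung the 9-nt exon was at 59.2% and 45.3% on C57BL/6J and 75.6% and 69.7% on SPRET/EiJ, from 39 to 177 reads, and was not called (adjusted p = 0.296).

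The alleles of a replicate come from the same library, and with the library as a block 1 residual degree of freedom was left. In that fit none of the 4 exons was called, each at an adjusted p of 0.548, with 12 of the 57 exons in heart at an unadjusted p below 0.05. That fit called 0% of all 52717 exons of the tables, so at this size it passed no exon of any gene. Outside heart no exon of the 8 genes was called in the quasi-binomial test without the block, among 21 exons tested in lung (1.94% of all exons called), 17 in cortex (1.61%), 13 in spleen (1.6%), 11 in liver (1.36%), 9 in kidney (2.03%) and 5 in ESC (0.35%). Of these 76 tests 13 had an unadjusted p below 0.05, and the lowest adjusted p was 0.0716, for the Pdlim3 exon in lung (96.8% and 99.1% on C57BL/6J, 89.0% and 82.8% on SPRET/EiJ).

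Whether the allelic difference itself varied among tissues was tested for the 30 exons with enough allelic reads in at least 2 tissues. None was called in the quasi-binomial interaction test (0.137% of all 26946 exons), 5 had an unadjusted p below 0.05, and the lowest adjusted p was 0.657, for the 105-nt Nebl exon. The calls in heart alone therefore do not show that the alleles differ more in heart than elsewhere.

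In fibroblasts, 31 exons of Pdlim5, Sorbs2 and Nexn had 20 reads in each of the 4 libraries. None was called between PladB and DMSO in the quasi-binomial test, beside 6.11% of all 41394 exons, with 13 at an unadjusted p below 0.05. Of these, 3 had an adjusted p below 0.05 (lowest 0.0245) but differed by less than 10 points. PSI was lower with PladB for 21 of the 31, beside 72.3% of all exons, and higher for 10, and the median difference was -0.61 points, beside -0.42 over all exons. The largest fall in Nexn was in the 79-nt exon, from 82.9% and 82.1% with DMSO to values of 75.7% and 67.4% with PladB (-11.0 points, adjusted p = 0.077). In the 42-nt exon of Nexn the values were 31.5% and 32.2% with DMSO and 31.6% and 34.3% with PladB.

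**Figure D4:**
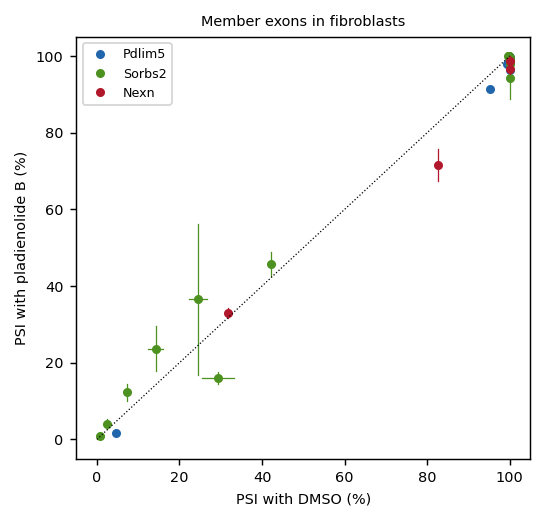
Mean PSI in percent with PladB (y axis) against DMSO (x axis) of the 31 exons of Pdlim5, Sorbs2 and Nexn measured in fibroblasts. Lines span the 2 replicates of each condition and the dotted line marks equal PSI. Most exons lie on the line, and those between the extremes scatter to both sides.

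Counted over every event, 2 of 44 events of these genes were called, beside 7.28% of all 54535 events. Both were in Pdlim5 and shared the junction that skips them, with 37 and 74 skipping reads with PladB and 12 in each DMSO library. The 419-nt exon fell from 98.7% in both DMSO libraries to 87.1% and 81.1% with PladB (-14.6 points, adjusted p = 0.00498). The 43-nt exon (chr3:142314406-142314448) fell from 96.3% and 96.1% to 73.6% and 60.6% (-29.1 points, adjusted p = 0.00765). PladB lay below DMSO in both replicates of each.

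The fibroblast values can be set beside those of heart given above, without a test. With DMSO, the 45-nt exon of Sorbs2 was at 43.1% and 41.4%, the 93-nt exon at 12.5% and 16.0% and the 1581-nt exon at 0.442% and 1.18%. The 15-nt exon of Pdlim5 between the outer exons was at 4.25% and 4.79%, beside 0% to 4.57% in kidney, lung, spleen, liver and ESC. Pdlim5 was at 80.9 and 81.9 TPM with DMSO and 23.5 and 24.8 TPM with PladB, Nexn at 25.8 and 26.7 against 13.4 and 13.5, and Sorbs2 at 14.6 in both DMSO libraries against 2.54 and 2.64. Each gene was lower in both PladB libraries.

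All 8 genes were also more highly expressed in heart than in the mean of the 6 other tissues, on the log2(TPM + 0.1) scale and tested with limma, at an adjusted p below 0.05 and a log2 difference of at least 1. Over all 22475 genes tested, 11.4% were higher in heart by this rule. The median log2 difference was 5.24 for the 8 genes and -0.71 for all genes.

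Tnnt2 was the most abundant of the 8, at 17772 and 17701 TPM in heart. It reached 287 and 229 TPM in lung, 31.1 and 12.4 in spleen, 8.27 and 7.88 in cortex, 1.64 and 4.62 in ESC, 1.15 and 0.796 in kidney and 0.734 and 0.366 in liver. Heart was thus 68.8 times above lung, the next tissue. The log2 difference from the mean of the others was 11.40 ± 0.39 (SE, adjusted p = 9.55e-09).

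Myom1 followed at 720 and 715 TPM in heart and 16.8 and 14.9 in lung, and Ldb3 at 583 and 567 in heart and 14.2 and 11.0 in lung. In the remaining tissues Myom1 lay at 7.44 TPM or less and Ldb3 at 6.47 or less. The log2 differences from the mean of the others were 8.05 ± 0.12 for Myom1 and 8.38 ± 0.18 for Ldb3. Nexn was at 460 and 468 TPM in heart, 50.2 and 49.9 in lung and 19.3 and 18.6 in cortex, a log2 difference from the mean of 6.27 ± 0.36.

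Pdlim5 was expressed throughout. It was at 229 and 232 TPM in heart and between 15.6 and 54.5 TPM in all other tissue libraries, with ESC at 54.5 and 31.9 next in order. Its log2 difference of 3.21 ± 0.15 was among the smaller ones. Sorbs2 was at 60.7 and 59.7 TPM in heart and 39.2 and 39.7 in cortex, and this log2 difference of 0.61 was under the limit of 1, as was that of Nebl for cortex (0.71) and lung (0.78).

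Pdlim3 departed from the others. It was at 30.9 and 31.1 TPM in heart and 49.3 and 48.5 in lung, with 19.3 and 11.2 in spleen and between 0.234 and 6.35 in the libraries of the 4 remaining tissues. The log2 difference between heart and lung was -0.66 ± 0.44 (adjusted p = 0.212) and that between heart and spleen 1.07 ± 0.44 (adjusted p = 0.0502). In heart the 8 genes thus ranked Tnnt2, Myom1, Ldb3, Nexn, Pdlim5, Sorbs2, Nebl and Pdlim3, and the replicates of neighbours in this order did not overlap.

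**Figure D5:**
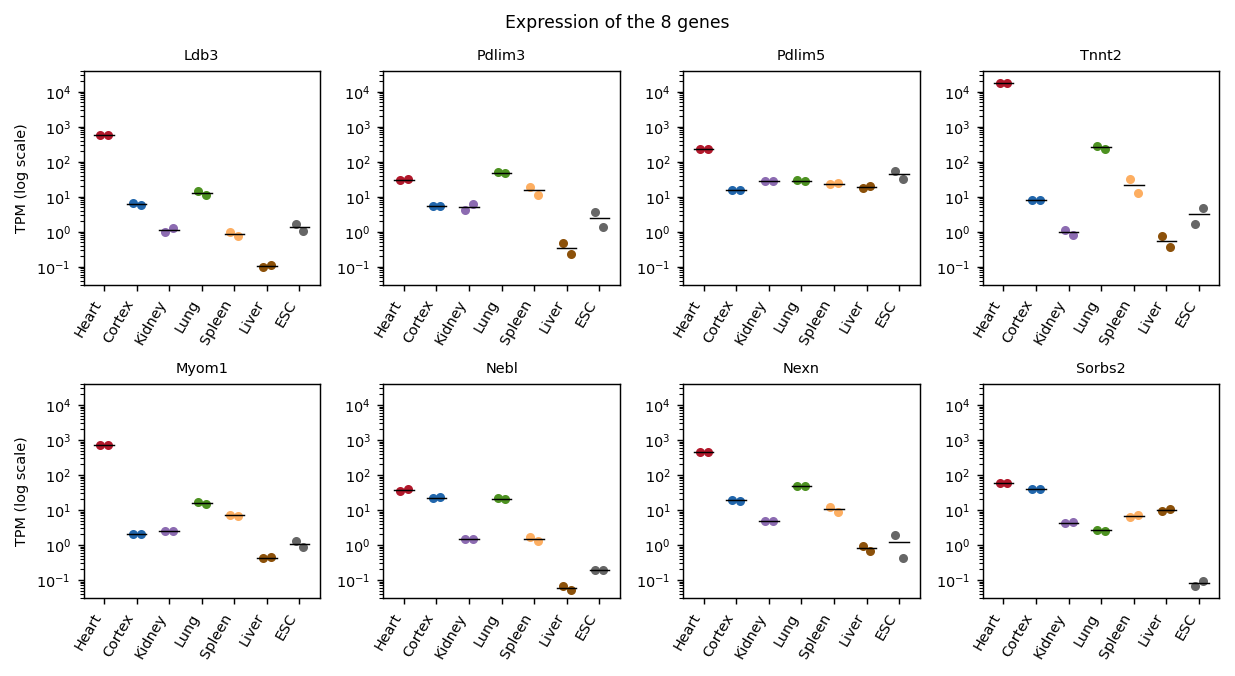
Expression in TPM (y axis, log scale) of the 8 genes by tissue (x axis). Points are replicates and bars means of 2 replicates. Heart is highest in each panel except that of Pdlim3, where lung is at 49.3 and 48.5 TPM and heart at 30.9 and 31.1 TPM.

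Against single tissues 43 of the 48 pairs of gene and tissue were called higher in heart, beside shares over all genes of 13.8% for cortex, 10.9% for kidney, 9.97% for lung, 14.6% for spleen, 37.8% for liver and 19.5% for ESC. The 5 others were those of Nebl, Sorbs2 and Pdlim3 just given. After scaling by median-of-ratios size factors, which moved the median of all genes by 0.31 to 0.80 upwards on the log2 scale and for liver by -0.48, 47 of 48 were called, and the exception was Pdlim3 in lung at -0.09.

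Other genes of the sarcomere were higher in heart than in the mean of the other tissues as well. Of 11 genes of the thick filament and M-band all 11 were called higher, with Myh6, the main cardiac myosin heavy chain, at 12122 and 11969 TPM, and Ttn, the titin gene, at 103 and 110 TPM in heart. Of 9 thin filament genes 8 were called higher, among them Actc1, cardiac actin, at 17470 and 18061 TPM, and Neb, the skeletal muscle relative of Nebl, was the exception at 0.400 and 0.632 TPM. Of 24 genes of the Z-disc and costamere 19 were called higher and none lower, led by Cryab, a small heat shock protein, at 4102 and 3839 TPM and Csrp3, muscle LIM protein, at 2730 and 2633 TPM. The genes not called were Vcl, Sorbs3, Pdlim1, Pdlim2 and Pdlim7, so that 3 of the 4 further PDZ-LIM genes listed were not called.

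The genes whose levels followed the mean of the 8 most closely over the 14 tissue libraries were Sgca (Pearson r = 0.986), a sarcoglycan of the muscle membrane, Zcchc5 (0.986), Hspa1l (0.979), Cav3 (0.979), muscle caveolin, and Trdn (0.977), a protein of the calcium release complex. These correlations describe 14 libraries of 7 tissues, of which heart alone is high, and carry no test.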

How the data were processed

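The authors aligned reads to both parental genomes (mm10 coordinates) with HISAT2 2.0.1, assigned them to the closer genome and ran rMATS. The deposited SE tables hold inclusion and skipping junction read counts per replicate and effective lengths (a score per the file headers), from which PSI was computed. The deposited p-values, FDR and inclusion differences are the authors' own comparisons and were not used. TPM were deposited by the authors from stranded featureCounts counts. Retained introns and fibroblast alleles were not analysed here.

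Allele order was checked with imprinted genes. The 3 maternally expressed genes had 73.9% to 99.7% of reads on C57BL/6J and the 5 paternally expressed ones 0.0604% to 22.5%. Liver strain labels C57BL/7J and C57BL/8J were read as C57BL/6J.

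Events with 20 reads in each replicate were fitted with a quasi-binomial logistic model (Python 3.11.15), with dispersions moderated by limma 3.58.1, F tests and Benjamini-Hochberg adjustment over all autosomal events. The dispersion was shared over tissues for heart and taken per tissue for alleles, for which allelic and all reads had to give a PSI within 0.1. TPM were tested with limma-trend on log2(TPM + 0.1) for genes with a mean of 1 TPM in some tissue, a scale that understates changes of low genes. The tests were checked on simulated data. Unlike the data, the simulated splicing counts had the same dispersion for every event and no pairing of alleles within a library. Exons named are up to 4 per gene with the largest called difference and all called between alleles.

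The members and lists were chosen with earlier results of these data known. The paper took the organs from the same animals, but labels do not tie replicates to animals. The organs were fitted as independent samples, so p-values measure the spread between these samples. Alleles of a library are paired by origin, and their deviations correlated at 0.085 to 0.605 over the 7 tissues.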

Additional observations from a re-analysis of the deposited data

How the results depend on the processing

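Counting every SE event instead of 1 per exon gave 22 called events for heart against other tissues in place of 13 exons, and 2 in place of 0 for PladB, through events with more distant flanks. Treating the library as a replicate block took the allelic calls from 4 to 0. For alleles, the fits without 1 library, given next, also took the dispersion over all tissues instead of per tissue. Leaving out 1 library gave 14 to 15 called exons for heart, 3 to 4 for alleles, 0 for the interaction and 0 for PladB, and 8 genes and 43 pairs for TPM. For PladB the fit without 1 library or with the replicate number as a block called no exon of any gene, so it says nothing about stability. Labels do not say which replicates of different organs share an animal. Deviations by replicate number correlated at -0.110 to 0.105 over 21 pairs of tissues and at -0.0196 in fibroblasts. Blocking on the replicate number gave 13 exons for heart, all 13 shared with the fit without it. With this block the 42-nt Nexn exon lost its call against kidney (adjusted p = 0.106). With a minimum of 50 reads 10 exons were called for heart, all among the 13, and with 10 reads 15. The cause of these changes beyond the number of reads and events was not tested.

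Of the values for single exons, 107 of 108 alternatives for heart kept direction and side of the threshold, as did 32 of 40 for alleles and 434 of 440 for TPM. Some heart and allele alternatives could not differ from the main result. Counting every event, or using the event seen in most tissues, repeats the main fit for the named heart exons. Counting every event, or dropping the filter on agreement with all reads, does so for alleles. Named heart exons below a raised read minimum were left out and not counted as lost. The heart and allele tallies thus overstate stability. The 204-nt Ldb3 exon also lost its call with a prior that ignores depth (adjusted p = 0.0547), and the 186-nt Ldb3 exon, at -18.6 points, with a limit of 20 points. No direction was reversed under these alternatives, which keep the event that stands for an exon. Measured between other flanking exons, the allelic difference in heart took the opposite sign for the 105-nt Nebl exon (11.5 against -33.5 points) and the 12-nt Tnnt2 exon (9.34 against -7.30 points). Other exons without an allelic call changed sign as well. Among them were the 15-nt (2.30 against -18.5 points) and 23-nt (-16.0 against 4.55 points) exons of Ldb3. Of the 66 exons measured in heart, 30 could not be tested through the event that stands for the exon. When the event seen in most tissues was used, 37 exons could be tested.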
